A study of Mus musculus with 6 samples.

Results

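The myosin heavy and light chains were read in double-negative 2 (DN2) thymocytes, the early CD4-negative, CD8-negative cells in which T-lineage commitment takes place. Members were all genes whose symbol in the array annotation was Myo, Myh or Myl followed by a number, 47 of the 18193 genes on the array, each represented by 1 probe set. The study set 3 arrays of E2A-deficient DN2 cells against 3 arrays of wild-type DN2 cells, both sorted from fetal thymus of mice on the FVB genetic background. E2A is the pair of transcription factors encoded by Tcf3. The labels give neither the allele nor the fetal age, and they do not say whether the replicates came from separate animals, so each p-value reflects the spread of these arrays and no more. Values are linear intensities. A log2 change is the E2A-deficient mean minus the wild-type mean of log2(intensity + 1).

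Myosins are actin-based motors. Heavy chains carry the motor head, and light chains bind the neck behind it. Class II heavy chains assemble into filaments that pull on actin, in muscle and, as nonmuscle myosin II, in nearly every other cell, where phosphorylation of the regulatory light chain switches contraction on. The unconventional classes work as single motors: class I links membranes to the actin cortex, class V carries vesicles, and class VI is the one class known to walk towards the pointed end of actin. In T cells, nonmuscle myosin IIA and class I myosins are known for roles in migration, cortical tension and contact with other cells.

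Of the 47 myosin genes, 5 rose in E2A-deficient cells and 0 fell (limma, Benjamini-Hochberg adjusted p under 0.05 over all 18193 genes). Over all genes 3.46% were called, 2.40% higher and 1.06% lower. The 5 were the class I motors Myo1f and Myo1g, the class VI motor Myo6, and the regulatory light chains Myl12a and Myl12b. Myo1f changed by 0.96, Myo1g by 0.85, Myo6 by 0.69, Myl12b by 0.47 and Myl12a by 0.40 on the log2 scale. None of the 12 class II heavy chains measured, muscle or nonmuscle, passed the test. At an unadjusted limma p under 0.05, 7 of the 47 genes were higher, beside 11.1% of all genes, and 2 were lower, beside 4.56%. Leaving out E2A-deficient replicate 1 or 2 brought the count of 5 to 3, and leaving out E2A-deficient replicate 3 or wild-type replicate 3 brought it to 2. Over all genes these fits called 221, 270, 216 and 247 higher, in that order, against 437 with all 6 arrays. The median log2 change of the 47 genes was -0.01, beside 0.01 over all genes.

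The start regions of the 5 called genes are shown because E2A proteins bind DNA at E-boxes, 6-base sequences of the form CANNTG, and these are the myosin genes that differed in cells short of E2A. The sequences are from RefSeq on mouse build GRCm38.p6, and each runs from 250 bases before to 50 bases after an annotated start, 5′ to 3′ on the strand of the gene. Capitals mark every CANNTG, which reads the same form on both strands.
Myo1f, chr17:33555457-33555756, plus strand: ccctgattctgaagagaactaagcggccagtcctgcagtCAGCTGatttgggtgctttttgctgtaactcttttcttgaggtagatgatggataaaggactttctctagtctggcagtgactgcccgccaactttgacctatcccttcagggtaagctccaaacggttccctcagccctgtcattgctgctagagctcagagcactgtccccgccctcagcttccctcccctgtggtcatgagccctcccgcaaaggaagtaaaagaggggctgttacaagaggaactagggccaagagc
Myo1g, chr11:6520909-6521208, minus strand: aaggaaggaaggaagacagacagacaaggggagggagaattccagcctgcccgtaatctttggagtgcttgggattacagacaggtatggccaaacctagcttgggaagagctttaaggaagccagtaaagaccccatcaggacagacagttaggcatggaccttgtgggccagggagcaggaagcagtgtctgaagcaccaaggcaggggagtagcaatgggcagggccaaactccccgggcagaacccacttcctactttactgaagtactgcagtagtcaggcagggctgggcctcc
Myo6, chr9:80164784-80165083, plus strand: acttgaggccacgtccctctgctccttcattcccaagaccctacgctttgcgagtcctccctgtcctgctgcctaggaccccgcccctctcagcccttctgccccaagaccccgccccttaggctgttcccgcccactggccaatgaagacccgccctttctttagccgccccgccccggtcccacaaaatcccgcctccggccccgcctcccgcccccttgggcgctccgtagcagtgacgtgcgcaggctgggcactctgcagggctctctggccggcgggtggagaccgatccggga
Myl12a, chr17:71002484-71002783, minus strand: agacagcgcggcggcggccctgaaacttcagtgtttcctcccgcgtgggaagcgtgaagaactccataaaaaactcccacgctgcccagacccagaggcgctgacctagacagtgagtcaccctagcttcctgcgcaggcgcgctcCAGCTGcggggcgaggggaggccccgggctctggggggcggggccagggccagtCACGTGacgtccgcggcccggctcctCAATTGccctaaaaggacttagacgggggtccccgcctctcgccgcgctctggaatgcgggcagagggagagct
Myl12b, chr17:70990467-70990766, minus strand: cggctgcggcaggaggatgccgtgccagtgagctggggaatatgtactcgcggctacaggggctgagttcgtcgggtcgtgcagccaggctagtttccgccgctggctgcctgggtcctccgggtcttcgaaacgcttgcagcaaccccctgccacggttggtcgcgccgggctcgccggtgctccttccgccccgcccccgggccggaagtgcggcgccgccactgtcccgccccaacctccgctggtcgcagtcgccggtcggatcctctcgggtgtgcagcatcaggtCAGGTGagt

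An E-box stood in 3 of the 5 windows. The Myo1f window held 1, CAGCTG at position -211, counted from the start base as 0. The Myl12a window held 3, CAGCTG at -104, CACGTG at -50 and CAATTG at -24. The Myl12b window held 1, CAGGTG at position 41, past the start. The windows of Myo1g and Myo6 held 0, which says only that these letters are not in this stretch. CANNTG occurred in 72.3% of the 32851 RefSeq windows of this length, CAGCTG in 16.3%, and CACCTG or its reverse complement CAGGTG in 20.2%. Of the 47 myosin genes, 42 had a window, with 53 windows in all. CANNTG occurred in 37 of these 53 windows, CAGCTG in 14, and CACCTG or CAGGTG in 12. Counted by gene, 31 of the 42 held a CANNTG in at least 1 of their windows, which is not a share of windows.

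Before the members, the sample checks are given. Tcf3 read 236, 229 and 281 in E2A-deficient cells, against 477, 421 and 414 in wild-type cells. The DN2 surface markers Il2ra, Kit and Cd44 lay at or above 272 on all 6 arrays and did not pass the test between groups. Among the other DN2 genes Gata3 rose (1.45) and Thy1 fell (-1.32). Ptcra, also on the DN2 list, was dim, with 81.4, 69.3 and 68.6 in E2A-deficient cells, against 81.2, 87.7 and 72.6 in wild-type cells. It lay below the upper quartile and did not pass (limma adjusted p = 0.617). Tcf7 was on the list but was not measured here. Cd4, Cd8a and Cd8b1, which DN2 cells lack, lay below the upper quartile and summed to 239 on each E2A-deficient array, against 235 to 247 in wild-type cells. The wild-type arrays differed among themselves in sex-linked transcripts: Xist read 1901, 1247 and 2154 in E2A-deficient cells, against 3055, 4456 and 58.7 in wild-type cells. The Y-linked Eif2s3y read 230, 339 and 208 in E2A-deficient cells, against 204, 58.0 and 343 in wild-type cells. Whether an array held cells of both sexes was not tested. The 5′ over 3′ log2 ratio of the beta-actin controls, a sign of RNA and amplification quality, was -2.60, -2.65 and -2.74 on the E2A-deficient arrays, against -3.26, -2.63 and -3.35 on the wild-type arrays. In sorted bulk cells, more cells that make a transcript and more transcript per cell cannot be told apart.

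Myo1f encodes a class I motor found mainly in blood cells and known from work on neutrophil movement. Its intensities were 183, 184 and 192 in E2A-deficient cells, against 109.6, 98.8 and 79.2 in wild-type cells. Every E2A-deficient array was above every wild-type array, and the E2A-deficient arrays lay close together. The log2 change was 0.96 (SE 0.114, 95% interval 0.70 to 1.23, n = 3 per group, limma adjusted p = 0.00532), a 1.95-fold difference. Of its other probe sets, 1 also rose in the fit over all 45037 probe sets, where 1.21% were called higher (log2 change 0.75, limma adjusted p = 0.0126), and 1 gave 0.32 without a call (adjusted p = 0.163). The 3 probe sets of Myo1f were thus all higher, with 2 called.

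Myo1g encodes the class I motor of lymphocyte plasma membranes, and in humans it is the source of the minor histocompatibility antigen HA-2. It read 876, 954 and 1022 in E2A-deficient cells, against 469.6, 654 and 476 in wild-type cells. The groups did not overlap, and wild-type replicate 2 stood above the other wild-type arrays. The log2 change was 0.85 (SE 0.134, 95% interval 0.53 to 1.16, n = 3 per group, limma adjusted p = 0.0181), a 1.80-fold difference. A single probe set measured Myo1g. Leaving out E2A-deficient replicate 2 (limma adjusted p = 0.0646), E2A-deficient replicate 3 (0.0737) or wild-type replicate 3 (0.0567) ended the call, against 0.00183 to 0.158 over all its alternatives, and the log2 change stayed between 0.59 and 1.00.

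The other class I genes did not pass. Myo1c, a motor known from membrane tension and glucose transporter traffic, came nearest. It read 235, 229.8 and 262 in E2A-deficient cells, against 196, 203 and 197 in wild-type cells. The groups did not overlap, but the log2 change of 0.28 (95% interval 0.12 to 0.44, limma adjusted p = 0.0779) missed the threshold, and its 3 other probe sets gave 0.10, 0.18 and 0.01. Myo1a, Myo1d, Myo1e and Myo1h had log2 changes between -0.01 and 0.04.

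Myo6 encodes the pointed-end-directed motor of endocytosis and of vesicle tethering. It read 96.2, 100.2 and 113 in E2A-deficient cells, against 63.5, 62.1 and 64.9 in wild-type cells. The groups did not overlap, and the wild-type values lay below the median of each array, which was between 77.4 and 78.99. The log2 change was 0.69 (SE 0.0721, 95% interval 0.52 to 0.86, n = 3 per group, limma adjusted p = 0.00318). No array had a value below 41.4, so the fold of a dim gene such as Myo6 can be understated. The other 2 probe sets of Myo6 were dimmer, gave 0.04 and 0.16, and neither was called over all probe sets (limma adjusted p = 0.910 and 0.583), so the rise rests on 1 probe set. With the mean of its probe sets the log2 change was 0.29 (limma adjusted p = 0.0147). The call held in all 19 alternatives, with limma adjusted p from 2.73e-05 to 0.0438.

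**Figure D1:**
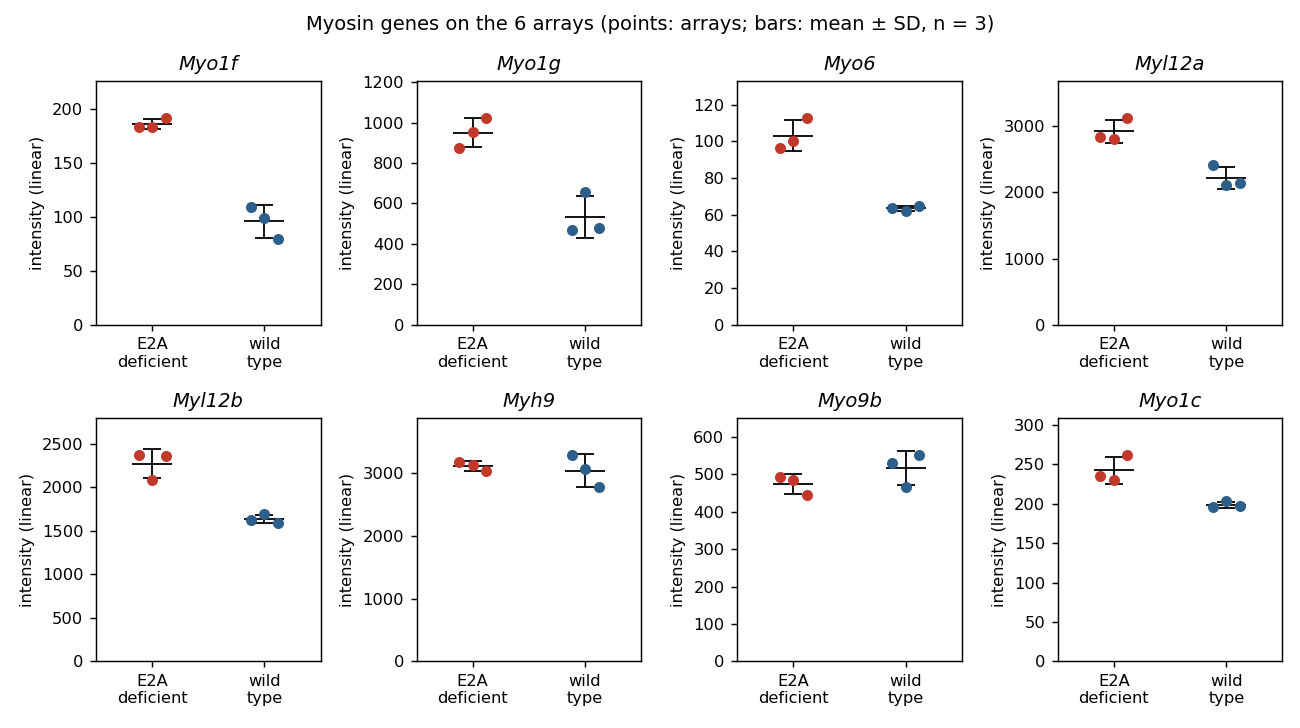
Linear intensity (vertical axes, from 0) of 8 myosin genes on the 6 arrays, E2A deficient left and wild type right. Points are arrays and bars are means ± SD (n = 3). Myo1f, Myo1g, Myo6, Myl12a, Myl12b and Myo1c show no overlap between the groups, whereas Myh9 and Myo9b overlap.

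The regulatory light chains Myl12a and Myl12b serve nonmuscle myosin II and are the subunits that myosin light-chain kinase phosphorylates. Myl12b read 2374, 2080.1 and 2361 in E2A-deficient cells, against 1628, 1689 and 1594 in wild-type cells. Myl12a read 2842, 2799 and 3120.45 in E2A-deficient cells, against 2416, 2115 and 2135 in wild-type cells. Neither gene had overlapping groups. Myl12b changed by 0.47 (SE 0.0706, 95% interval 0.30 to 0.64, n = 3 per group, limma adjusted p = 0.0151) and Myl12a by 0.40 (SE 0.0770, 95% interval 0.21 to 0.58, limma adjusted p = 0.0392). In RefSeq the pair lie next to each other on chromosome 17. Their transcripts are close paralogs, so a probe set of one may also read the other, which was not tested here.

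The light-chain calls depended on quantile scaling and on single arrays. Genes with a mean log2 intensity of at least 10, 771 in number, had a median log2 change of 0.14 as deposited and of -0.01 after quantile normalization. After quantile normalization Myl12b changed by 0.34 (limma adjusted p = 0.0711) and Myl12a by 0.27 (0.114), and neither passed. Under median centring both kept their calls, with 0.47 for Myl12b (0.0200) and 0.40 for Myl12a (0.0431). Averaged over its probe sets, Myl12b gave 0.26 (0.0321). Myl12a kept its call in 1 of the 6 fits that leave out an array, the one without wild-type replicate 1, with limma adjusted p from 0.0852 to 0.129 in the other 5. Myl12b kept it in 3, and lost it without E2A-deficient replicate 1 (0.0595) or 3 (0.0627) and without wild-type replicate 3 (0.0501). Over all alternatives the limma adjusted p was 0.0323 to 0.187 for Myl12a and 0.0148 to 0.194 for Myl12b. In the fit over all probe sets the probe set of Myl12b passed (limma adjusted p = 0.0220) and that of Myl12a did not (0.0556). A dimmer probe set of Myl12a gave 0.27 and one of Myl12b gave 0.04, and neither passed.

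The other regulatory light chains were dim. Myl9, the smooth-muscle and nonmuscle form, had a log2 change of 0.00 (95% interval -0.15 to 0.15). Myl2, the ventricular form, read 75.9, 71.5 and 74.0 in E2A-deficient cells, against 64.2, 63.9 and 56.1 in wild-type cells. That log2 change of 0.26 missed the threshold (limma adjusted p = 0.110). It passed when limma used robust variances with an intensity trend (0.0212), and under no other alternative (0.0212 to 0.601 over all of them). Myl10 read 63.7, 71.03 and 64.0 in E2A-deficient cells, against 93.1, 72.8 and 79.8 in wild-type cells, a log2 change of -0.30 (limma adjusted p = 0.186). The atrial form Myl7 read 71.96, 69.9 and 70.0455 in E2A-deficient cells, against 69.6, 62.6 and 68.5 in wild-type cells, a log2 change of 0.08 (limma adjusted p = 0.679). All 3 had groups that did not overlap, at levels near or below the array medians.

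Of the essential light chains none passed. Myl6, the essential partner of nonmuscle myosin II, gave a log2 change of 0.11 (95% interval -0.08 to 0.29) on the 1 probe set that names it alone, with intensities from 121 to 142 in E2A-deficient cells, against 115 to 127 in wild-type cells. The annotation lists 2 further probe sets for Myl6 together with 2 predicted genes, and these were not used. The Myl6 value thus rests on 1 probe set with a mean of 125, below the upper quartile. How well it reads the Myl6 transcript was not tested. Myl6b gave -0.05, Myl1 0.06, Myl3 -0.01 and Myl4 -0.09.

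Myh9, the heavy chain of nonmuscle myosin IIA, did not pass. It read 3186.5, 3126.5 and 3032 in E2A-deficient cells, against 3292, 3061 and 2775 in wild-type cells. The groups overlapped, with a log2 change of 0.04 (SE 0.0745, 95% interval -0.14 to 0.21, limma adjusted p = 0.909). The sign turned after quantile normalization (-0.11) and without wild-type replicate 3 (-0.03), and its 4 other probe sets gave between -0.09 and 0.05. Set against Myh9 on the same array, Myl12b was higher by 0.43 and Myl12a by 0.36 on the log2 scale in E2A-deficient cells, and neither ratio overlapped between groups. The exact two-sided permutation p was 0.1 for each (n = 3 per group), the smallest that 3 arrays against 3 allow. After quantile normalization these differences were 0.45 and 0.37. The pairs were chosen after their values were seen.

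The other nonmuscle heavy chains were dim. Myh10, nonmuscle myosin IIB, read 90.6, 89.9 and 68.7 in E2A-deficient cells, against 89.7, 123 and 98.0 in wild-type cells, with overlapping groups and a log2 change of -0.31 (95% interval -0.66 to 0.03, limma adjusted p = 0.375). Myh14, nonmuscle myosin IIC, gave -0.01 (95% interval -0.13 to 0.12). The 9 muscle heavy chains Myh1, Myh2, Myh3, Myh4, Myh6, Myh7, Myh7b, Myh8 and Myh11 lay between 52.5 and 82.6 on every array, with log2 changes from -0.03 to 0.09. The annotation also has 2 probe sets that name Myh6 and Myh7 together, and these were not used.

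**Figure D2:**
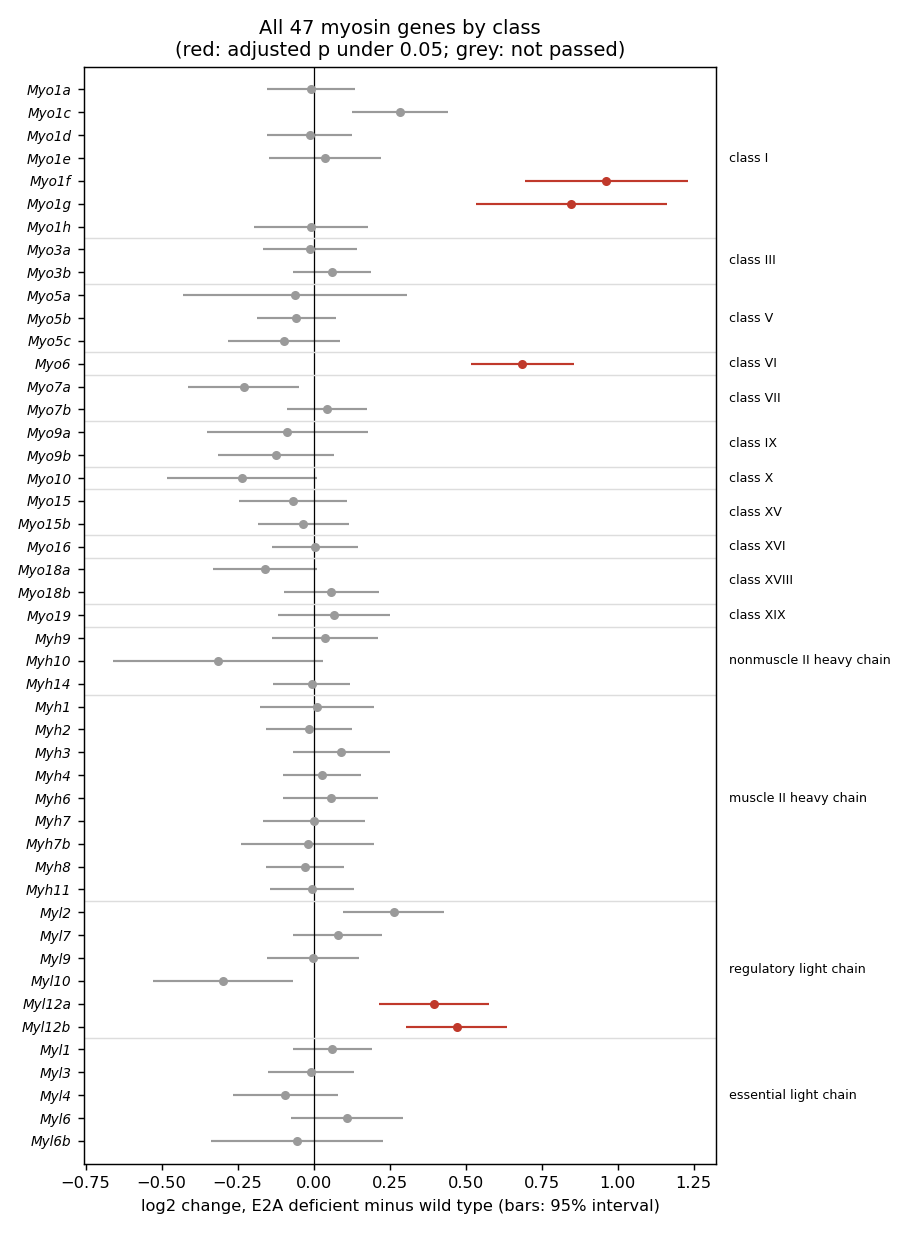
Log2 change, E2A deficient minus wild type (horizontal axis), of the 47 myosin genes with 95% intervals from limma, grouped by class from top to bottom. Red marks the 5 genes with an adjusted p under 0.05, in class I, class VI and the regulatory light chains; the intervals of the muscle heavy chains all cross 0.

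Among the remaining unconventional motors, 3 had a mean intensity over 134, the upper quartile of the probe sets on these arrays. Myo9b, a class IX motor that also carries a GTPase-activating domain, read 493, 485 and 444 in E2A-deficient cells, against 532, 467 and 552 in wild-type cells, a log2 change of -0.12 (95% interval -0.31 to 0.07, limma adjusted p = 0.585) with overlapping groups. Myo18a, a relative of class II, read 217, 239 and 221 in E2A-deficient cells, against 272, 244 and 240.4 in wild-type cells, a log2 change of -0.16 (limma adjusted p = 0.361) with groups that did not overlap. Myo7a, a motor of sensory hair bundles in the inner ear, read 128, 134 and 114 in E2A-deficient cells, against 150.6, 150.7 and 139 in wild-type cells, a log2 change of -0.23 (limma adjusted p = 0.194), again without overlap. On the probe sets used, the fitted change was below 0 for all 3, and none passed under any alternative tried. The dimmer probe sets of Myo9b gave 0.12 and 0.00, and the mean of its probe sets gave -1.04e-04.

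In all, 37 members were both uncalled and at or below that quartile. On single arrays they lay between 52.5 and 149.8, and their log2 changes lay between -0.31 and 0.26 with a median of -0.01. They include the cargo carrier Myo5a (-0.06, 95% interval -0.43 to 0.31) and the filopodial motor Myo10 (-0.24, 95% interval -0.48 to 0.01). No detection calls were used here, so whether such members were expressed cannot be read from these values. Of the 42 uncalled myosin genes, 40 had a 95% interval within 0.5 of 0 on the log2 scale, and the exceptions were Myh10 and Myl10. The fold of a dim gene can be understated, so for the 37 dim members these intervals bound the array signal and not the transcript level. Groups did not overlap for 9 members that were higher, against 13.2% of all genes, and for 3 that were lower, against 6.74%.

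By mean over all 6 arrays, the called members were mostly bright ones. Of the 9 members above the upper quartile, 4 rose, where 4.75% of the 6752 genes above it were called higher. That mean includes the arrays in which a gene differs, so this split is not independent of the change. Myo1f (mean 141) was above 134 only through its E2A-deficient arrays, since its wild-type arrays read 109.6, 98.8 and 79.2. Myo7a (mean 136), not called, was above it only through its wild-type arrays. Of the 38 at or below it, 1 rose, Myo6, where 1.01% of the 11441 genes there were called higher.

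**Figure D3:**
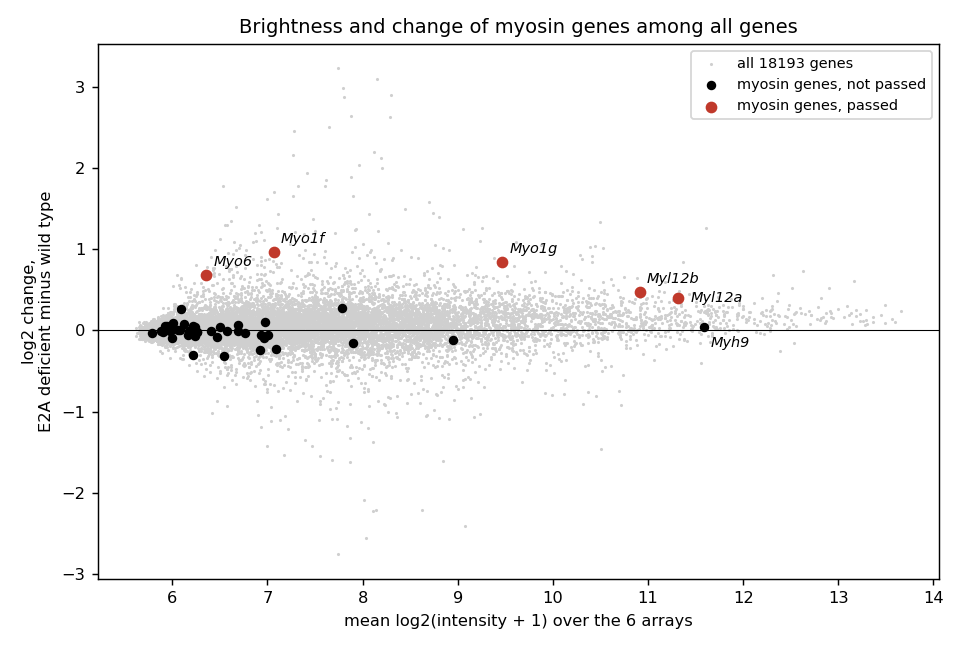
Log2 change, E2A deficient minus wild type (vertical axis), against mean log2(intensity + 1) over the 6 arrays (horizontal axis) for all 18193 genes (grey) and the 47 myosin genes (black, or red where the adjusted p was under 0.05). Myl12a, Myl12b and Myh9 sit at the bright end, where the cloud of all genes lies slightly above 0.

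Genes that regulate, carry or bind myosins were read in 3 lists, beside 3.46% of all genes called. Of 25 measured regulators of myosin II (small GTPases, kinases, phosphatase subunits and assembly factors), 1 rose, 0 fell and 24 did not pass, with a median log2 change of 0.08. It was S100a4, a calcium-binding protein that binds the Myh9 heavy chain and loosens its filaments. S100a4 read 348, 338 and 314 in E2A-deficient cells, against 93.2, 84.3 and 81.4 in wild-type cells, which differed by 1.94 in log2 (SE 0.0740, limma adjusted p = 7.23e-05). Rhoa (0.15), Rock1 (-0.11), the light-chain kinase Mylk (-0.01), the phosphatase subunit Ppp1r12a (0.29) and the phosphatase catalytic subunit Ppp1cb (0.03) did not pass.

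Of 17 genes of the actin filament, 4 rose, 1 fell and 12 did not pass, with a median log2 change of 0.19. Of these 17, 10 lay above the upper quartile of mean intensity. Of all genes above it, 4.75% were called higher, with a median log2 change of 0.08. The part of brightness in the median of this list was not tested. The tropomyosin Tpm4 read 763, 857 and 1037 in E2A-deficient cells, against 479, 358 and 399 in wild-type cells, which differed by 1.10 in log2 (SE 0.140, limma adjusted p = 0.00752). The cross-linker Actn1 went the other way, with 172, 144 and 199 in E2A-deficient cells, against 369.5, 394 and 359 in wild-type cells, with a log2 difference of -1.13 (SE 0.115, limma adjusted p = 0.00271). With the mean of its probe sets Actn1 gave -0.46 (0.00899), and with the beta-actin ratio as covariate it gave -1.18 and was not called (0.0531, over its alternatives 9.07e-05 to 0.0531). Cytoplasmic gamma-actin, Actg1, read 6415, 5853 and 6316 in E2A-deficient cells, against 4531, 4827 and 4153 in wild-type cells, a log2 change of 0.46 (limma adjusted p = 0.0196). The groups overlapped in none of these 3 genes.

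The tropomyosin Tpm2 read 164, 145 and 153 in E2A-deficient cells, against 109.8, 115 and 104 in wild-type cells, a log2 change of 0.49 (limma adjusted p = 0.0131). The filamin Flna read 693, 642 and 732 in E2A-deficient cells, against 507, 554 and 464 in wild-type cells, a log2 change of 0.44 (limma adjusted p = 0.0365). Neither gene had overlapping groups. The Tpm2 value came from a probe set common to several transcripts, and with such probe sets left out its log2 change was -0.0051. The Actg1 value also came from such a probe set, and with these left out Actg1 was not measured. Actg1 lost its call after quantile normalization (limma adjusted p = 0.0937), without E2A-deficient replicate 1 (0.0791) or 3 (0.0801) and without wild-type replicate 3 (0.0501; over its alternatives 0.0114 to 0.229). Flna kept its call in 1 of the 6 fits that leave out an array (limma adjusted p over its alternatives 0.0244 to 0.347). Tpm2 lost its call without E2A-deficient replicate 3 (0.0515), over its alternatives 0.00975 to 0.986. The beta-actin gene Actb (0.31) did not pass, nor did Pfn1 (0.43), Cfl1 (0.25) or Actn4 (0.06).

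Of 22 adaptors and light chains of the unconventional motors, 0 rose, 1 fell and 21 did not pass, with a median log2 change of 0.01. Calml4, a calmodulin-like light chain, read 76.9, 71.7 and 74.8 in E2A-deficient cells, against 123, 106 and 97.0 in wild-type cells, a log2 change of -0.53 (limma adjusted p = 0.0243). It lost the call without any 1 of the 3 E2A-deficient arrays (limma adjusted p 0.0719, 0.0861 and 0.0862) or without wild-type replicate 2 (0.0690; over its alternatives 0.00198 to 0.234). Rab27a, which recruits class V motors to vesicles, gave -0.46 and was not called (limma adjusted p = 0.0612). The Myo6 adaptors Gipc1 (0.23), Tax1bp1 (-0.19), Tom1 (0.11) and Dab2 (0.02) did not pass. Lmtk2, also on this list, gave 0.30 and was not called (limma adjusted p = 0.185). At an unadjusted limma p under 0.05, 5 of the 22 were higher, beside 11.1% of all genes, and 2 were lower, beside 4.56%.

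**Figure D4:**
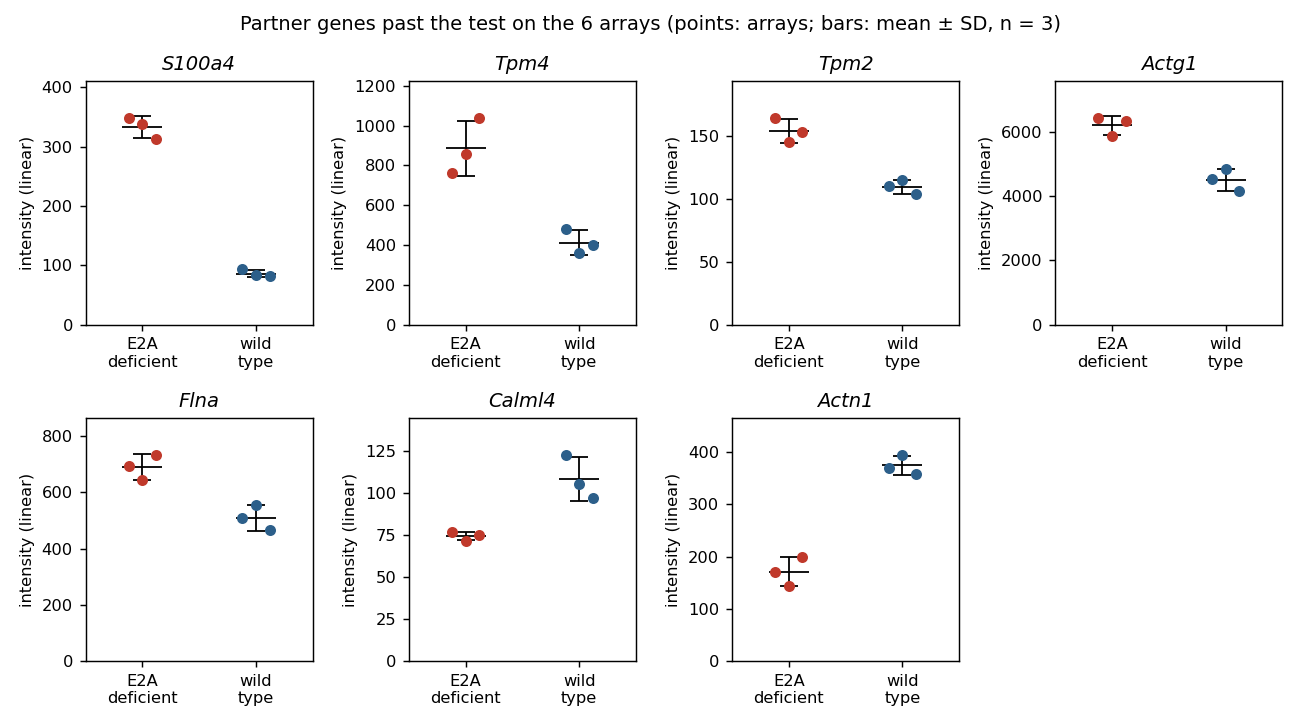
Linear intensity (vertical axes, from 0) of the 7 regulator, filament and adaptor genes that passed the test, E2A deficient left and wild type right. Points are arrays and bars are means ± SD (n = 3). S100a4, Tpm4, Tpm2, Actg1 and Flna are higher in E2A-deficient cells, and Calml4 and Actn1 are lower.

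Markers of muscle were looked at because several myosins are muscle genes. The counts below stand beside 2.40% of all genes called higher and 1.06% called lower by limma. At an unadjusted limma p under 0.05, 11.1% of all genes were higher and 4.56% were lower. Of 20 striated-muscle markers 2 were higher at an unadjusted p under 0.05, and 1 of these rose, the slow-fibre troponin Tnni1 (167 ± 15.5 in E2A-deficient cells and 88.5 ± 6.96 in wild-type cells, SD, n = 3; log2 change 0.91, limma adjusted p = 0.00261). The other 19 lay between 55.9 and 140.04 on every array, and the 20 summed to between 1689 and 1723 in E2A-deficient cells, against 1548 to 1612 in wild-type cells. Of 6 smooth-muscle markers 0 were called by limma, 1 was lower at an unadjusted p under 0.05, and their sum was between 499 and 511 in E2A-deficient cells, against 501 to 522 in wild-type cells. Of 6 platelet markers 0 were called by limma and 1 was higher at an unadjusted p under 0.05, with sums of 772 to 993 in E2A-deficient cells, against 675 to 754 in wild-type cells. Of 6 thymic epithelial markers 1 rose, Krt18 (0.69), and 2 were higher at an unadjusted p under 0.05, Krt18 and Krt8 (0.46, limma adjusted p = 0.123), with sums of 588 to 648 in E2A-deficient cells, against 504 to 515 in wild-type cells. Of 5 macrophage markers 1 fell, Lyz2 (-0.50), and 1 was higher at an unadjusted p under 0.05, Cd68 (0.18, limma adjusted p = 0.189), with sums of 425 to 435 in E2A-deficient cells, against 421 to 454 in wild-type cells. Of 8 mesenchymal and endothelial and 4 measured erythroid markers 0 were called by limma, and 0 had an unadjusted p under 0.05. No marker was at 0 on any array, and the part of these cell types in the myosin values was not tested.

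The beta-actin 5′ over 3′ ratio was lower on 2 of the 3 wild-type arrays than on any E2A-deficient array. With that ratio as a covariate, Myo6 passed (log2 change 0.74, limma adjusted p = 0.0438), and the other 4 called members did not. Myo1f then gave 0.90 (0.108, over its alternatives 1.73e-04 to 0.108), Myo1g 0.59 (0.158), Myl12b 0.43 (0.194) and Myl12a 0.46 (0.187). Over all genes the same fit called 72 higher and 51 lower, against 437 and 193 without the covariate. With Xist as a covariate, Myo6, Myo1f, Myo1g and Myl12b passed, and Myl12a did not (0.38, limma adjusted p = 0.0671).

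**Figure D5:**
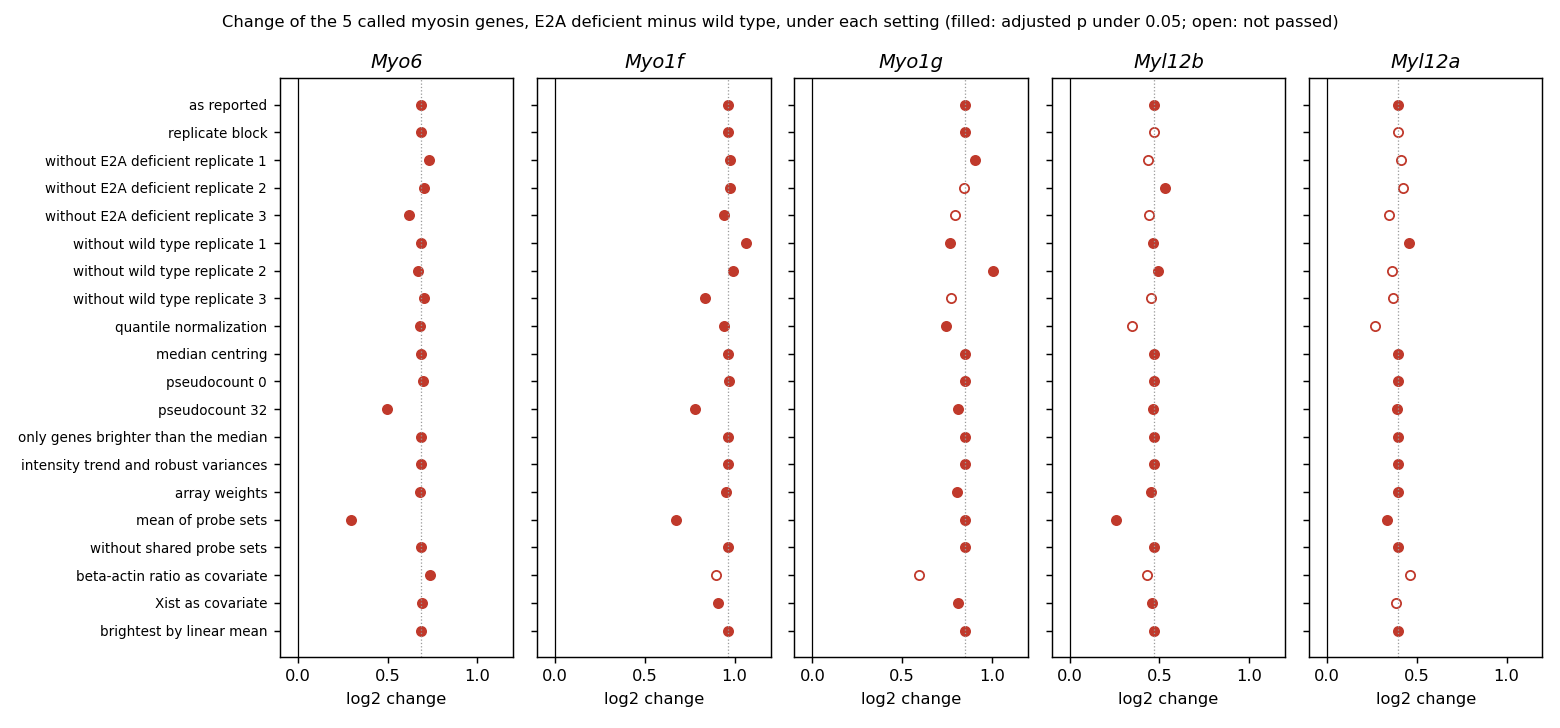
Log2 change, E2A deficient minus wild type (horizontal axes), of the 5 called myosin genes under each setting (rows). Filled points have a limma adjusted p under 0.05 and open points do not; every point lies above 0, Myo6 is filled throughout, and Myl12a is open in 9 of its 19 alternatives.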

How the data were processed

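Intensities of 45101 probe sets on 6 Affymetrix mouse arrays were used. The intensity values were deposited by the authors as linear numbers, and per the submitters' processing notes they were made with RMA. The version of RMA, the return to a linear scale and any filter are not given in the sources used here. The deposited arrays did not have the same distribution of values. The highest value was 13632 on wild-type replicate 2 and 18824 on E2A-deficient replicate 1. Why they differed was not tested. Per the labels' protocols, RNA from few cells was amplified by more than 1 round of in vitro transcription.

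Control probe sets (64) were dropped. Of the rest, 34945 named 1 gene in the array annotation, and each gene took its probe set with the highest mean log2 value. All 47 members matched RefSeq (GRCm38.p6) by Entrez identifier under the same symbol.

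Log2(intensity + 1) was fitted with limma 3.58.1 (R 4.3.3), empirical Bayes, two-sided, Benjamini-Hochberg over all genes, threshold 0.05, without filter or further normalization. Figures used matplotlib 3.10.9 (Python 3.11.15). The fit was tested on simulated data, in which it recovered 81.3% of log2 changes of 0.5, and 5.51% of calls were false. The simulated noise was independent between genes and arrays. That test therefore could not show errors from an effect shared by many genes on an array, such as RNA quality.

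Members and lists were chosen with earlier results of these data known. Named were all called members, all above the upper quartile of mean intensity, the 3 with the smallest p among other members without group overlap, and called partner genes. Other genes given with values were picked for their role after their values were seen. The number of arrays limits precision. No protein sequences were used here, so identity between light chains was not computed.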

Additional observations from a re-analysis of the deposited data

How the results depend on the processing

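Direction was the same as reported for Myl12a, Myl12b, Myo1f, Myo1g and Myo6 under all 19 alternatives (1 of them, the brightest probe set by linear mean, was chosen after seeing the data), with log2 changes of 0.27 to 0.46, 0.26 to 0.53, 0.68 to 1.07, 0.59 to 1.00 and 0.29 to 0.74. The count of myosin genes higher, 5, was 3 with the replicate number as a block, 3 after quantile normalization, 1 with the beta-actin ratio as covariate, and 2 to 5 when 1 array was left out; that of myosin genes lower was 0 in each limma fit (2 at an unadjusted p under 0.05 in the reported one). Under the replicate block Myl12a (limma adjusted p = 0.0914) and Myl12b (0.0546) did not pass. Same-numbered arrays did not deviate together (correlations of deviations -0.02 to 0.03 over 3 pairs), so the number is not known to pair the samples. Partner genes higher, 5, became 3 without probe sets shared between transcripts, 2 with the beta-actin ratio and 2 to 6 with 1 array left out; partner genes lower, 2, became 0 with that ratio and 1 to 2 with 1 array left out. All genes higher, 437, became 72 with that ratio and 216 to 368 with 1 array left out, and all genes lower, 193, became 51 and 104 to 165. Quantile normalization moved the share of calls that were higher to 58.5%, against 69.4% as reported. Myh9, not called, changed sign under quantile normalization (-0.11), when probe sets were averaged (-0.0092) and without wild-type replicate 3 (-0.0276, within a left-out range of -0.0276 to 0.0954). Tpm2 changed sign without shared probe sets (-0.0051). The array left out mattered most for E2A-deficient replicates 1, 2 and 3 and wild-type replicate 3. Without these in turn, 3, 3, 2 and 2 myosin genes were higher, and 221, 270, 216 and 247 of all genes. The cause was not tested. Dim members near the floor of the deposited values limit what these arrays can show.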
